A study of Bos taurus with 6 samples.

Results

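The genes described here are FOXL2, GATA4, GATA6, NR5A1, NR5A2, WT1, NR0B1 and FOXO1, which encode transcription factors of granulosa cells, and AMH, which encodes anti-Müllerian hormone. They were found by their names in the array's probe annotation, which gave 12 probes of 8 genes among 43794 probes: 3 probes each for NR5A2 and WT1 and 1 each for FOXL2, GATA4, NR5A1, NR0B1, FOXO1 and AMH. No probe carried the name GATA6, and this gene was not analysed here. Probes named SF1 were not taken as NR5A1, although SF-1 is an older name of that factor, because SF1 is the symbol of another gene.

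Granulosa cells surround the oocyte, respond to follicle-stimulating hormone (FSH) and convert androgen to oestradiol. FOXL2 keeps these cells on the ovarian path, and GATA4, NR5A1, NR5A2 and WT1 act on the genes of steroid synthesis, inhibin and AMH. NR0B1 represses the activity of NR5A receptors, FOXO1 marks growing follicles and is shut out of the nucleus when insulin, IGF1 or FSH activate the kinase AKT, and AMH is a granulosa hormone of small growing follicles that lowers the response to FSH in rodents.

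RNA of 3 superstimulated beef cows (group 1) and 3 non-superstimulated beef cows (group 4), all of them multiparous, was compared on 6 two-colour arrays. Superstimulation is a course of gonadotropins that makes several follicles grow together. The labels list gonadotropins as the ovarian stimulation in both groups, so that the reference animals cannot be called untreated, and they give neither age nor dose nor tissue. The cows with the same number in both groups shared their arrays and formed a pair, hybridised once with the superstimulated cow in Cy5 and once in Cy3. The 2 arrays of a pair held the same RNA and were averaged, so that n was 3 pairs.

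The sign of all ratios rests on the dye fields of the arrays, where Cy5 on arrays 1 to 3 is the superstimulated animal; the array described as an example in the design text has it in Cy3, which would turn all of them. A positive log2 ratio here means more signal in the superstimulated cow by the array fields. The median foreground intensity of the probes was 152 to 299 in red and 161 to 283 in green. A probe counted as above background where its foreground mean passed a limit set for each channel of each array, the 95th percentile over 756 spots of negative controls. That limit was 140 to 299.9 in red and 141 to 259 in green. Precision of the group comparison is limited by the number of animals, 3 cows a group, hybridised as 3 pairs on the 6 arrays.

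The members fell into a bright and a dim set. GATA4 and 2 of the 3 NR5A2 probes, EMBV3_40939 and EMBV3_09371, were at least 11.1 times the negative control limit in each of 12 channels. FOXO1 lay between 1.29 and 5.86 times the limit, AMH between 1.04 and 2.84 times and the third NR5A2 probe, EMBV3_29870, between 1.06 and 1.94 times. These 6 probes were above background in both channels on all 6 arrays.

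FOXL2, the factor that defines granulosa identity, was not above background in any of the 12 channels of its probe EMBV3_40428. Its foreground intensity ran from 127 to 278, or 0.853 to 0.973 times the limit, and no ratio is given for it. NR5A1, which drives steroid enzyme genes, passed the limit on 3 of 6 superstimulated channels and on 5 of 6 others. NR0B1 passed it on 2 and 5. The WT1 probes did so on 5 and 4 arrays (EMBV3_03434), 4 and 6 arrays (EMBV3_06341) and 3 and 3 arrays (EMBV3_11139), and their highest signal was 1.31 times the limit. Detection also depended on the dye: green passed more probes than red on each array, 65.4% to 71.2% against 47.3% to 63.2%. NR5A1 and WT1 EMBV3_11139 passed in all green channels, NR0B1 mostly in green, and WT1 EMBV3_11139 in no red channel. The red NR5A1 signals that passed, of non-superstimulated cows 1 and 2, were 140.7 and 155.1 against limits of 139.6 and 155.0. A single probe below background gives no measure of how much of its mRNA the tissue held.

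**Figure D1:**
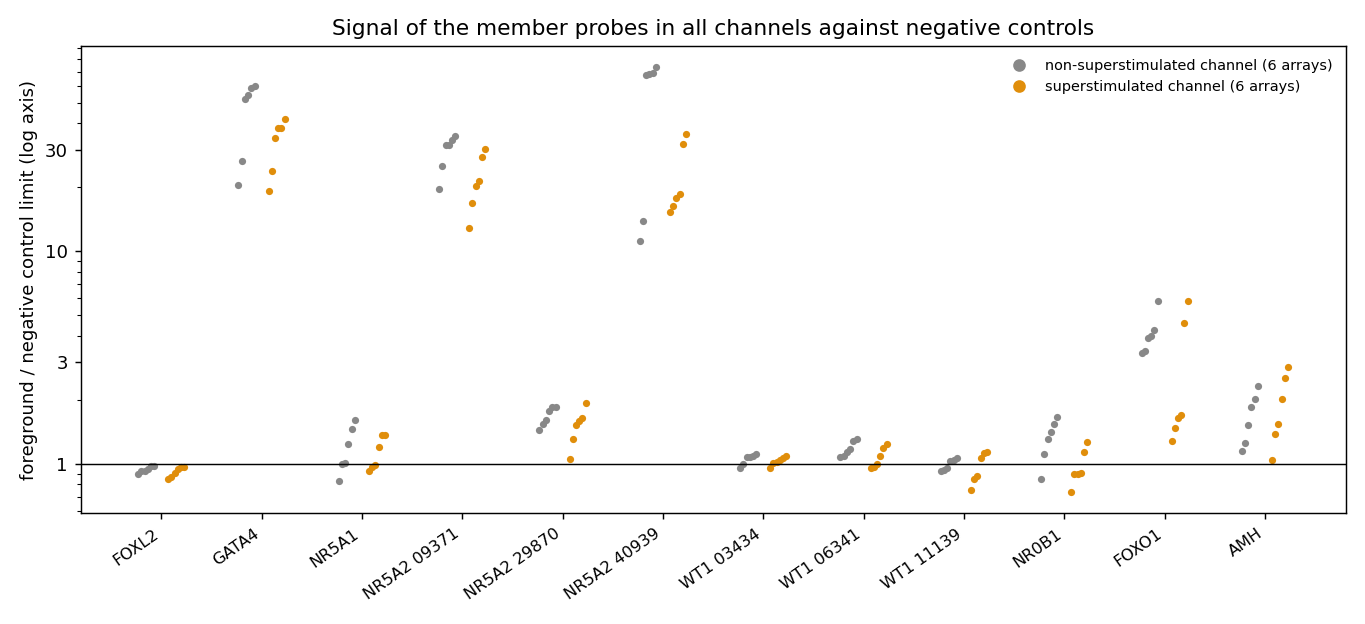
Foreground intensity of the 12 member probes divided by the negative control limit of the same channel (log axis, limit at 1), with 1 point for each of 6 arrays in the non-superstimulated (grey) and superstimulated (orange) channel. GATA4 and NR5A2 probes EMBV3_40939 and EMBV3_09371 stood at 11.1 times the limit or more, while all FOXL2 points lay below it.

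Between superstimulated and non-superstimulated cows, 0 of the 11 member probes that passed the intensity filter (all except FOXL2) passed an adjusted p of 0.05 by limma, where 0% of 31957 probes did. At an unadjusted p under 0.05 there were also 0, against 3.25% of all probes. Of the 11 mean ratios, 4 lay above 0 and 7 below, with a median of -0.17 against -0.01 over all kept probes. Of the 11, 2 probes had ratios of 1 sign across the pairs, both of NR5A2 and both below 0, against 22.4% of all probes. None of the 11 kept its sign on all 6 arrays. A ratio of 2-fold or more in at least 1 pair was seen for 4 of 11 probes, those of GATA4 and FOXO1 and the bright NR5A2 probes EMBV3_09371 and EMBV3_40939, against 15.3% of all probes. The levels per cow did not overlap between the groups for 1 of 11 probes, NR5A2 probe EMBV3_09371, against 5.36% of all probes. Its exact two-sided permutation p over 3 cows against 3 was 0.1, the smallest this design can give.

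GATA4, a zinc finger factor that activates inhibin, aromatase and AMH genes, was nearly level across 5 of the 6 cows. Its log2 level was 12.81, 11.86 and 12.84 in superstimulated cows 1, 2 and 3 and 12.97, 12.92 and 12.76 in the others. The second superstimulated cow stood below the remaining 5, and the groups overlapped. The log2 ratio was -0.16, -1.06 and 0.08 in pairs 1, 2 and 3, with a mean of -0.38 ± 0.60 (SD, n = 3 pairs; limma adjusted p = 0.999, 95% interval -1.20 to 0.45). In pair 2 this was a 2.08-fold lower signal, seen as -1.17 on one array and -0.94 on its dye swap, and without pair 2 the mean was -0.039. In bulk samples such as these, fewer cells of a type and less RNA per cell cannot be told apart.

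NR5A2, also called LRH-1, is the NR5A receptor most abundant in granulosa cells and is needed for ovulation in mice. Its 3 probes gave 3 different patterns, and the files do not say which transcripts each one reads. Probe EMBV3_40939 had log2 levels of 12.56, 11.54 and 11.74 in superstimulated cows 1, 2 and 3 and 13.27, 13.23 and 11.90 in the others. Both cows of pair 3 and superstimulated cow 2 were low, and the groups overlapped. Its ratios were -0.71, -1.69 and -0.16, with a mean of -0.85 ± 0.78 (SD, n = 3 pairs; limma adjusted p = 0.999, unadjusted p = 0.0843, 95% interval -1.91 to 0.20). Its unadjusted p was the smallest among the members. The mean was -0.44 without pair 2 and -1.20 without pair 3.

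The second bright probe of NR5A2, EMBV3_09371, had levels of 12.07, 12.06 and 11.55 in superstimulated cows and 12.12, 12.17 and 12.74 in the others. Pairs 1 and 2 were nearly level and pair 3 was apart, by -0.71 on one array and -1.65 on its swap. The ratios were -0.06, -0.11 and -1.18, with a mean of -0.45 ± 0.64 (SD, n = 3 pairs; limma adjusted p = 0.999, 95% interval -1.32 to 0.42). Without pair 3 its mean was -0.08, whereas the ratios of EMBV3_40939 were largest in pairs 1 and 2.

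The dim NR5A2 probe, EMBV3_29870, had levels of 8.08, 7.85 and 7.36 in superstimulated cows and 7.65, 7.94 and 8.20 in the others. Its ratio was 0.43 in pair 1, -0.09 in pair 2 and -0.85 in pair 3, and the swapped arrays agreed in sign in each pair. The mean was -0.17 ± 0.64 (SD, n = 3 pairs; limma adjusted p = 0.999, 95% interval -1.05 to 0.71), and it was -0.47 without pair 1 and 0.17 without pair 3.

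FOXO1, a forkhead factor that represses steroid synthesis genes in rodent granulosa cells, varied more between cows than any other member. Its log2 level was 9.75, 7.59 and 7.54 in superstimulated cows 1, 2 and 3 and 8.98, 8.91 and 10.22 in the others. Superstimulated cows 2 and 3 were the low animals, and non-superstimulated cow 3 and superstimulated cow 1 the high ones, so that the groups overlapped. The ratio was 0.77 in pair 1, -1.33 in pair 2 and -2.68 in pair 3, that is 1.70-fold higher, 2.51-fold lower and 6.39-fold lower. The swapped arrays gave 0.70 and 0.83, -1.27 and -1.38, and -2.82 and -2.54. The mean was -1.08 ± 1.73 (SD, n = 3 pairs; limma adjusted p = 0.999), and its 95% interval of -3.41 to 1.25 holds changes in both directions. The mean was -2.001 without pair 1, -0.95 without pair 2 and -0.28 without pair 3, and none of these passed.

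AMH had levels of 8.25, 8.56 and 7.36 in superstimulated cows 1, 2 and 3 and 7.36, 8.07 and 8.004 in the others. The lowest cow of each group was at the same level, and the groups overlapped. The ratio was 0.89 in pair 1, 0.49 in pair 2 and -0.64 in pair 3, with a mean of 0.25 ± 0.80 (SD, n = 3 pairs; limma adjusted p = 0.999, 95% interval -0.84 to 1.33). The mean was -0.08 without pair 1, 0.12 without pair 2 and 0.69 without pair 3. The swaps of AMH lay far apart: 0.45 and 1.34 in pair 1, 0.14 and 0.85 in pair 2, and -1.26 and -0.03 in pair 3. Its red over green term, which is also the difference between the 2 slides, was -0.47 on the log2 scale and passed limma's test (adjusted p = 0.00335).

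NR0B1, also called DAX-1, had levels of 7.03, 6.61 and 7.15 in superstimulated cows and 7.68, 7.57 and 6.94 in the others. Non-superstimulated cows 1 and 2 were the high animals, and superstimulated cow 2 was below background on both of its arrays. The groups overlapped. The ratio was -0.65, -0.96 and 0.22 in pairs 1, 2 and 3, with a mean of -0.46 ± 0.61 (SD, n = 3 pairs; limma adjusted p = 0.999, 95% interval -1.30 to 0.37). Pair 3 held opposite signs on its arrays, -0.25 and 0.69. The mean was -0.22 without pair 2 and -0.81 without pair 3.

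The sign of NR5A1 turned with the dye. All 3 ratios of NR5A1 on the arrays with the superstimulated cow in Cy5 were negative, from -0.65 to -0.37, and all 3 on the swapped arrays were positive, from 0.26 to 0.98. Its red over green term was -0.54 (limma adjusted p = 0.00181), its levels spanned only 6.88 to 7.30 over the 6 cows, and its mean ratio was 0.05 ± 0.25 (SD, n = 3 pairs; limma adjusted p = 0.999). WT1, a zinc finger factor of the early gonad and of small follicles, had mean ratios of 0.02 ± 0.04 for EMBV3_03434, -0.15 ± 0.19 for EMBV3_06341 and 0.0018 ± 0.083 for EMBV3_11139 (SD, n = 3 pairs each). The signs of EMBV3_11139 and EMBV3_03434 also turned with the dye, so their means average opposite signs. With the superstimulated cow in Cy5, EMBV3_11139 had -0.38 to -0.10 and EMBV3_03434 0.10 to 0.21. On the swapped arrays they had 0.17 to 0.25 and -0.25 to -0.07. In pair 3 EMBV3_06341 had -0.36, the farthest of the WT1 ratios from 0, and without that pair its mean was -0.053. The red over green term passed for 4 of the 11 probes, those of NR5A1, AMH, NR0B1 and WT1 EMBV3_11139, where 35.1% of all probes passed.

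**Figure D2:**
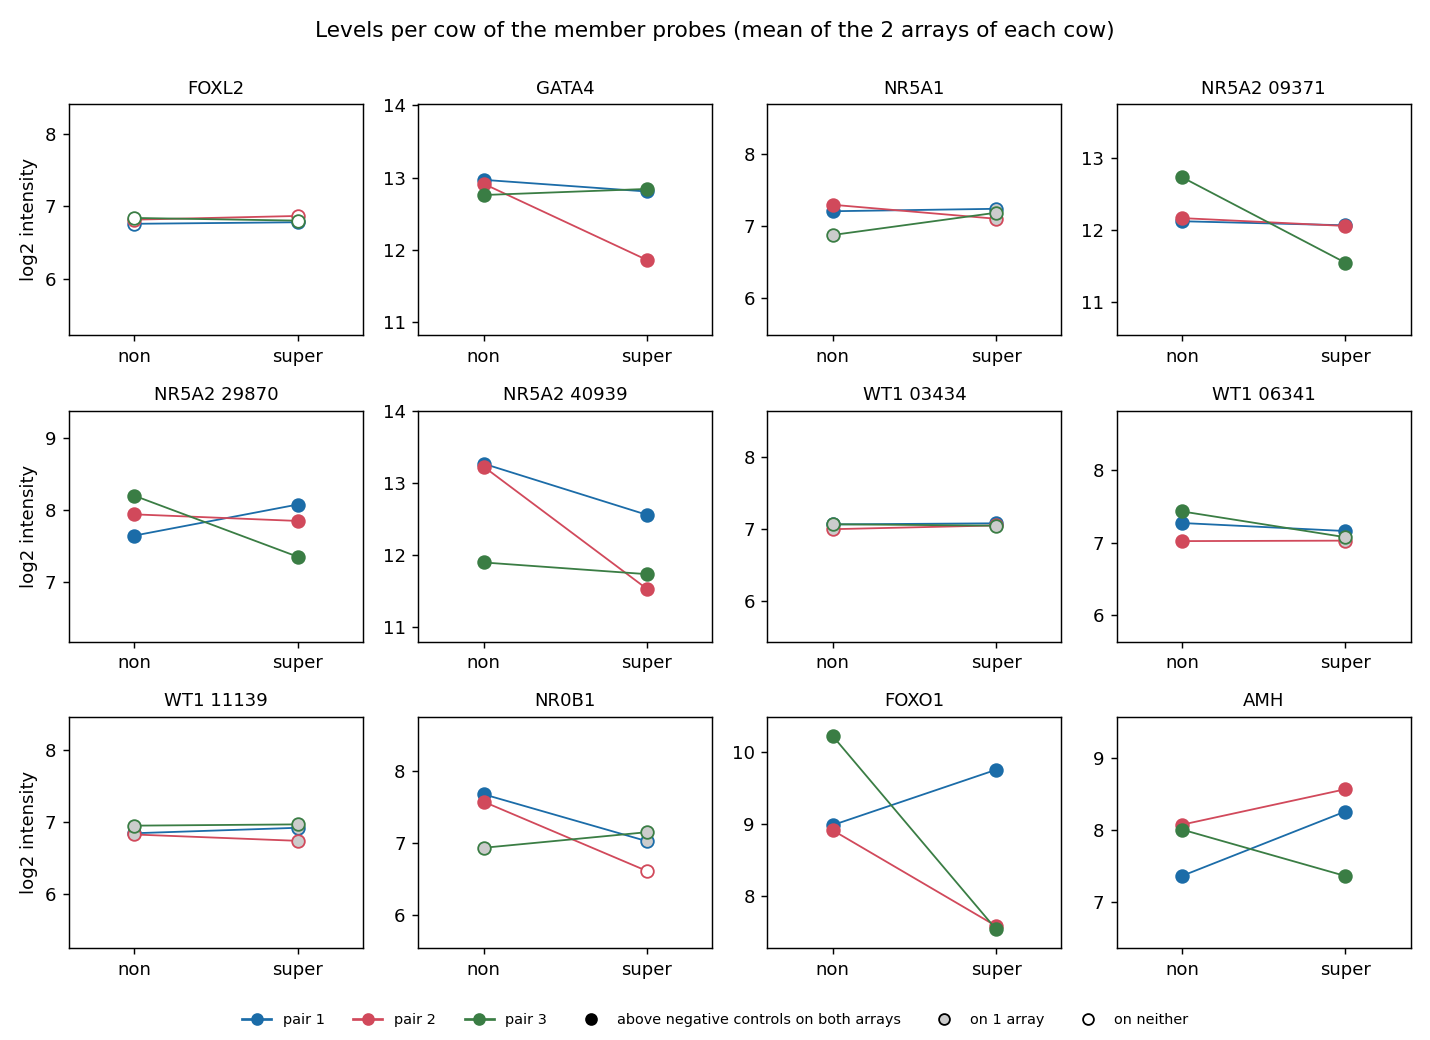
Log2 intensity of the 12 member probes in each cow (mean of the cow's 2 arrays), non-superstimulated on the left and superstimulated on the right of each panel, joined by pair; each vertical axis spans 3.2 log2 units. Filled points were above negative controls on both arrays, grey points on 1 and open points on neither. FOXO1 ranged from 7.54 to 10.22, whereas FOXL2, NR5A1 and the WT1 probes reached at most 7.43 in any cow.

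The pairs differed from each other in most of the brighter members. Limma's moderated F test took its error from the swapped arrays of a pair, a technical error that does not extend to further animals. At an adjusted p of 0.05 it found 7 of 11 member probes unequal across the pairs, against 40.3% of all probes. Among probes above background in both channels on all 6 arrays, 6 of 6 member probes differed between pairs against 63% of all such probes. The limma adjusted p was 2.06e-05 for FOXO1, 0.000648 for AMH, 0.000741, 0.00132 and 0.00754 for NR5A2 probes EMBV3_29870, EMBV3_40939 and EMBV3_09371, 0.00313 for GATA4 and 0.00476 for NR0B1. The call for GATA4 was lost without pair 2 (adjusted p = 0.301) and that for NR5A2 EMBV3_09371 without pair 3 (0.778). The count was 3 with the foreground median in place of the mean and 4 in the authors' deposited table. FOXO1, AMH and NR5A2 EMBV3_40939 passed under each of the 12 settings run.

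In pair 1, 3 member probes were higher against the swap error, those of FOXO1, AMH and NR5A2 EMBV3_29870, where 2.65% of all probes were. Another 2 were lower, NR5A2 EMBV3_40939 and NR0B1, against 4.27%. In pair 2, AMH alone was higher (12.5% of all probes), and GATA4, NR5A2 EMBV3_40939, NR0B1 and FOXO1 were lower (14.9%). In pair 3 no member was higher by limma at an adjusted p of 0.05, against 21.4% of all probes, and 1 was at an unadjusted p under 0.05. FOXO1, AMH, NR5A2 EMBV3_09371 and EMBV3_29870 and WT1 EMBV3_06341 were lower there (16.1%). Over the 11 probes the median ratio was 0.02, -0.11 and -0.16 in pairs 1, 2 and 3, against medians of 0.00, 0.00 and -0.03 over all kept probes. The median size of the ratio, leaving its sign aside, was 0.16, 0.19 and 0.31 against 0.10, 0.13 and 0.20.

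**Figure D3:**
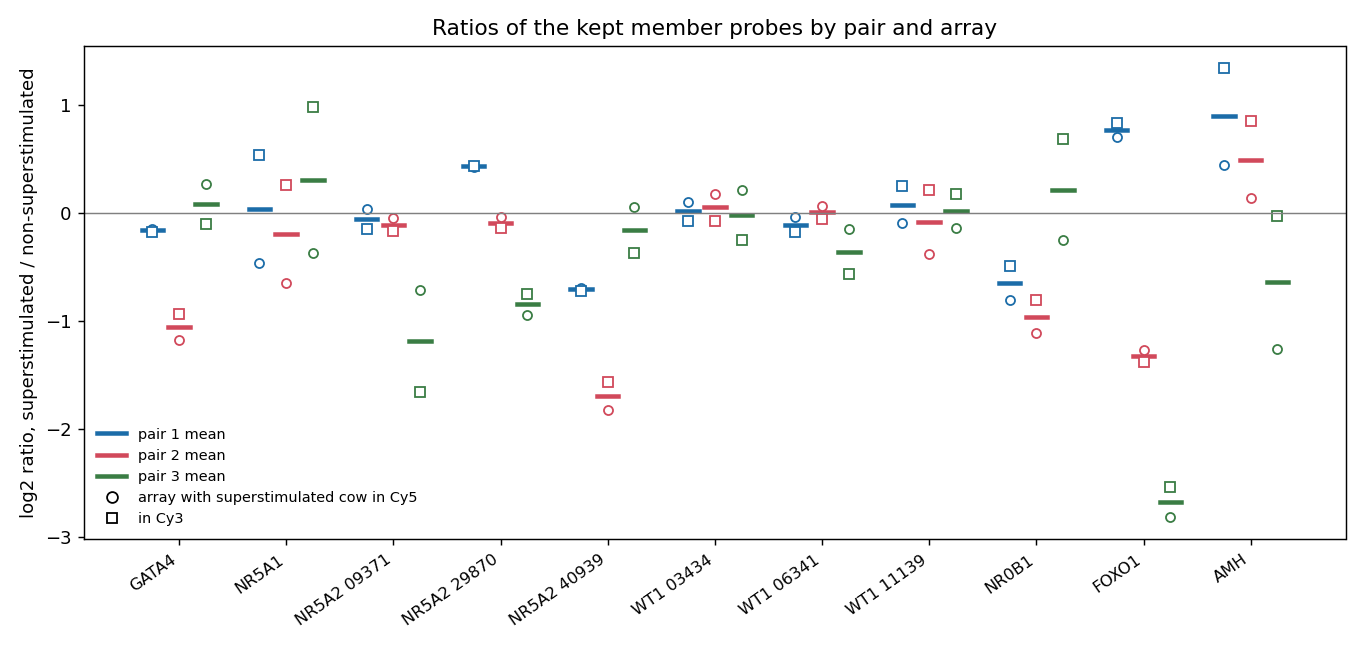
Log2 ratio of superstimulated over non-superstimulated signal for the 11 kept member probes; bars are the means of pairs 1, 2 and 3, circles the arrays with the superstimulated cow in Cy5 and squares those with it in Cy3. FOXO1 ran from 0.77 in pair 1 to -2.68 in pair 3. All circles of NR5A1 and WT1 EMBV3_11139 lay below 0 with all their squares above it.

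Among the 6 probes above background in all channels, array ratios of GATA4 and NR5A2 EMBV3_40939 ran together (Pearson r = 0.988 over 6 arrays of 3 pairs), as did those of FOXO1 and NR5A2 EMBV3_29870 (r = 0.972). The 2 bright NR5A2 probes had r = -0.559. These are descriptions of 3 pairs with a swap each, so that close agreement is common: of the 6939 other genes searched, those above background in all channels with a symbol that is no placeholder, 638 had r over 0.9 with GATA4, 788 with NR5A2 (EMBV3_40939), 213 with FOXO1 and 220 with AMH. The closest patterns were those of PPA2 and NUP88 to GATA4 (r = 0.997 and 0.995), FAM114A1 and ACTR6 to NR5A2 (0.9995 and 0.999), APH1A and FGF12 to FOXO1 (0.995 and 0.994) and EIF3D and ZNF696 to AMH (0.996 and 0.993). Such an r ignores size and offset: PPA2 had ratios of 0.39, -0.86 and 0.79 in pairs 1, 2 and 3.

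The genes on which these factors act, and their partners, were described from 6 lists of 94 genes, of which 69 were measured. By limma 0 of the 69 passed in the group ratio, against 0% of 12332 genes, and 8, or 11.6%, had an unadjusted p under 0.05, against 3.59% of all genes. The ratio differed between pairs for 43 of them, or 62.3%, against 51.1% of all genes. The lists were chosen with earlier results of these data known, and nothing particular to them can be read from these shares. Up to 4 genes of each list were named for the smallest unadjusted p by limma, a choice that favours 1 sign across the pairs. Of all probes, 22.4% had 1 sign in the 3 pairs.

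Of 16 genes of granulosa function, all measured, 9 had a mean ratio above 0 and 7 below, with a median of 0.03 against -0.02 over all genes. SERPINE2, a protease inhibitor, had 0.42 ± 0.15 (SD, n = 3 pairs), CCND2, the cyclin of granulosa proliferation, 0.74 ± 0.38, FSHR, the receptor of FSH, -0.53 ± 0.30 and KITLG, the ligand that granulosa cells send to the oocyte, 0.27 ± 0.18. All 4 kept their sign in the 3 pairs, which their choice by p favours, and none passed. Against the swap error 3 of the 16 were higher and 2 lower in pair 1, where 3.83% and 6.92% of all genes were. In pair 2 these counts were 3 and 5 (13.8% and 21.8% of all genes), and in pair 3 they were 7 and 2 (27.3% and 19.6%). CYP19A1, the aromatase and a target of NR5A2, GATA4 and FOXL2, had -0.03, -1.36 and 0.51 in pairs 1, 2 and 3.

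AMH acts through the receptor AMHR2 and through type I receptors and SMADs that it shares with bone morphogenetic proteins. Of 14 such genes 11 were measured, 5 with a mean ratio above 0 and 6 below (median -0.04), and 10 of the 11 differed between pairs, where 51.1% of all genes did. However, 10 of the 11 were above background in all channels, among them SMAD9, which did not differ, and not AMHR2, which did. Of all probes above background in all channels 63% differed, a share by probe and not by gene. BMPR1B, a type I receptor tied to ovulation rate in sheep, was lower in each pair, with -0.63, -1.25 and -2.08 and a mean of -1.32 ± 0.73. ID3, a target of this pathway, had 0.15, -4.03 and -1.02, and ID2 -0.27, 1.14 and 0.54. AMHR2 had -0.51 ± 0.61 and passed the limit on 3 superstimulated channels and 5 others.

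Of 21 genes of the insulin and AKT pathway, which keeps FOXO1 out of the nucleus, 17 were measured, 9 above 0 and 8 below (median 0.01). IGF1R, the receptor of IGF1, had 0.35 ± 0.18, SGK1, a kinase that also phosphorylates FOXO1, 0.59 ± 0.40, RICTOR, a subunit of the complex that activates AKT, -0.44 ± 0.28 and TSC2, a brake on mTOR, -0.25 ± 0.18. Each of the 4 kept its sign in all pairs, which their choice by p favours. Insulin receptor INSR had 0.10, 0.17 and -0.58, and AKT1 0.03, -0.01 and -0.31. AKT1 passed the limit on 3 superstimulated channels and 5 others.

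Of 21 partners and cofactors 11 were measured, 6 above 0 and 5 below (median 0.04). CITED2, which works with WT1 and NR5A1 in the mouse gonad, had -1.01, -3.17 and -1.15 in the 3 pairs, with a mean of -1.78 ± 1.21. The GATA partner ZFPM1 had -0.31 ± 0.27, TCF21 -0.31 ± 0.69 and WTAP, a WT1-associated protein, 0.22 ± 0.59. ZFPM1 passed the limit on only 1 superstimulated channel and 3 others. Of 12 relatives of the members 8 were measured, 2 above 0 and 6 below (median -0.06). FOXP2 had -1.25 ± 0.59, ESRRA 0.44 ± 0.55, FOXO3 -0.14 ± 0.15 and FOXO4 -0.05 ± 0.06. FOXO3 passed the limit on 3 superstimulated channels and 3 others, and FOXO4 on 3 and 4. Of 10 genes of the Sertoli pathway, the testis counterpart that FOXL2 opposes, 6 were measured, 5 above 0 and 1 below (median 0.07), and 1 of the 6 was above background in all channels. SOX9, the central gene of that pathway, had 0.10 ± 0.07, DMRT1 0.46 ± 1.02, GDNF -0.09 ± 0.15 and PTGDS 0.03 ± 0.06. The member of this list that was above background in all channels was CLDN11, a tight junction protein, named after its values were seen. Its ratios were -3.31, -0.90 and 5.77 in pairs 1, 2 and 3, opposed in sign and far wider than those of the other genes of the list.

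**Figure D4:**
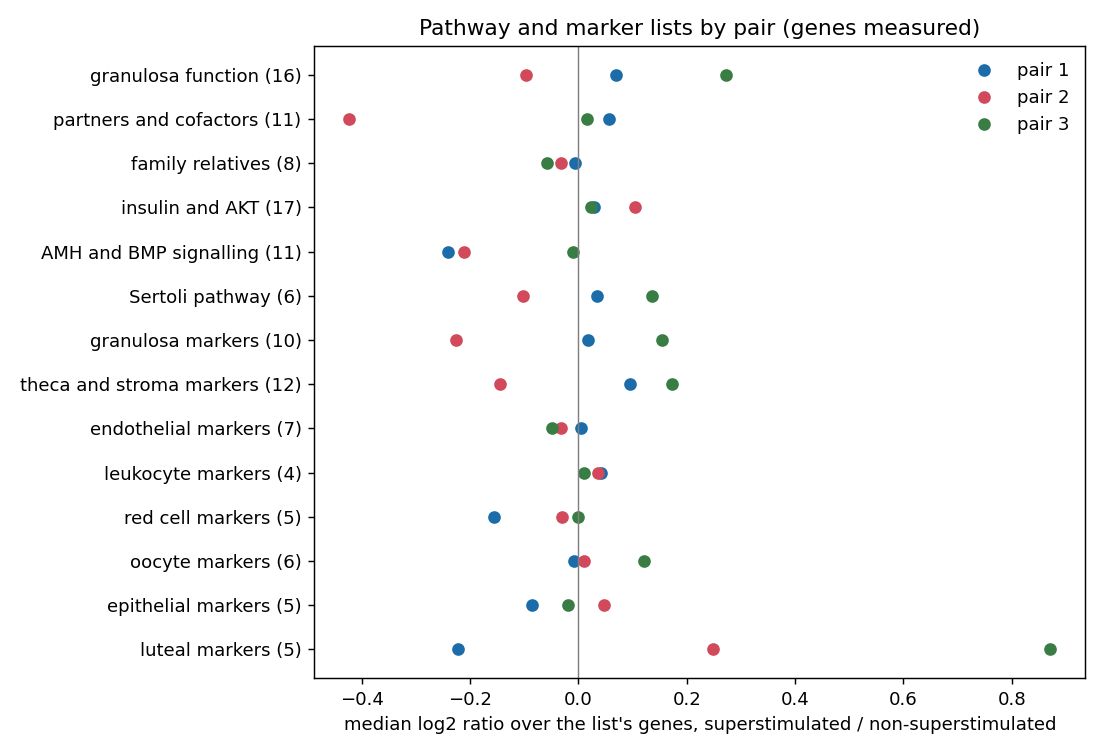
Median log2 ratio of superstimulated over non-superstimulated signal in pairs 1, 2 and 3 for 6 pathway lists and 8 cell type marker lists, with the number of genes measured in brackets. Partners and cofactors stood at -0.42 in pair 2, and luteal markers at 0.87 in pair 3.

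The labels name no tissue, so the markers of granulosa cells and of other ovarian cells were read beside the members. Of 11 granulosa markers 10 were measured and 7 were above background in all channels, INHA, INHBA, INHBB, FST, CYP19A1, FSHR and the member AMH. FOXL2, also a member, was the marker that was not kept. The summed linear level of the 10 was 62707 to 87641 in superstimulated cows and 43252 to 75707 in the others. All 12 theca and stroma markers were measured, 8 of them above background in all channels, with summed levels of 13874 to 29326 against 6027 to 11670. These sums weight bright probes most: by gene, 7 mean ratios lay above 0 and 5 below, with a median of 0.01. Luteal markers, 5 of 6 measured and 3 above background in all channels, summed to 6520 to 28221 against 3771 to 12381. Epithelial markers, 5 of 8 measured and 1 above background in all channels, summed to 687 to 7658 against 648 to 3517.

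Endothelial markers had 7 of 10 measured and 1 above background in all channels (1003 to 1083 against 966 to 1105), leukocyte markers 4 of 11 and 2 (2918 to 3298 against 2565 to 6284), red cell markers 5 of 6 and 0 (631 to 722 against 657 to 734) and oocyte markers 6 of 11 and 1 (825 to 912 against 820 to 836). Such sums include probes near background, which still carry a level: FOXL2, above it in no channel, had log2 levels of 6.76 to 6.87. Markers that did not pass the intensity filter included PECAM1 of endothelium, CD14 and CSF1R of leukocytes, GDF9 of oocytes and CDH1 of epithelium. In the same lists ROBO4 of endothelium, PTPRC and CD3E of leukocytes, FIGLA of oocytes and KRT8 of epithelium were above background in all channels. VWF of endothelium passed the limit on 0 superstimulated channels and 5 others. Its signal was near the limit, and its ratios were only -0.12, 0.003 and -0.21 in pairs 1, 2 and 3. In pair 2, where GATA4, NR0B1, FOXO1 and NR5A2 EMBV3_40939 were lower, the keratins KRT8 and KRT18 had ratios of 5.23 and 2.15, the matrix proteoglycans LUM and DCN 4.02 and 2.30 and the lipoprotein receptor SCARB1 2.64. Their lists did not move as one in pair 2: ACTA2 had -1.46, MYH11 -1.10, NR2F2 -0.65, COL1A2 -0.53 and COL3A1 -0.45, the theca and stroma median was -0.15, and KRT7, KRT19 and EPCAM lay between -0.09 and 0.05. In pair 3, where FOXO1, AMH and 2 NR5A2 probes were lower, LUM had 4.38, COL3A1 3.10 and PLIN2, a lipid droplet protein, 1.65. MYH11, a smooth muscle myosin, had -4.25 and PDGFRA -1.11, and the theca and stroma median was 0.17. MYH11 passed the limit on 3 superstimulated channels and 5 others. PDGFRA and PLIN2 were higher in pair 2, with 1.68 and 1.90. The granulosa list, which includes AMH, had a median of -0.23 in pair 2 and 0.16 in pair 3. Against the swap error 4 of its 10 genes were lower and 1 higher in pair 2 (21.8% and 13.8% of all genes). In pair 3 these counts were 2 and 4 (19.6% and 27.3%). In pair 2 CYP19A1 had -1.36, AMHR2 -1.22, FST -1.17, FSHR -0.72 and INHA -0.29, whereas AMH had 0.49 and INHBB 0.39. In pair 3 INHA had 1.41, INHBB 0.76, CYP19A1 0.51 and FST 0.41, whereas FSHR had -0.67 and AMHR2 -0.22. These marker genes were picked after their values were seen, and their part in the members' ratios was not tested.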

How the data were processed

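RNA of 3 cows a group was extracted with Trizol, amplified in 2 rounds and labelled with Cy3 and Cy5, per the labels' protocols. The deposited scanner tables hold the intensity of each spot and of its surroundings in green and red, as raw values per the file headers. The sources used here name no scanner. Of 45220 spots, 8 unnamed and 42 marked as ignored were left out. With limma 3.58.1 in R 4.3.3, foreground means were corrected with normexp (offset 50), which pulls ratios of dim probes toward 0, and normalized by loess within arrays with control spots at weight 0. Kept were 31957 of 43753 probes that passed the negative controls, in either channel, on 3 or more of the 6 arrays. Aquantile on separate channels gave each cow's level. The deposited log2 table was an alternative, for which the sources used here state no normalization. Its columns correlated at 0.739 to 0.868 with red over green of the same array, and their slope on it over 15878 bright probes was 0.990 to 1.08, so direction and scale were taken as log2 red over green. Its columns were centred near 0, with medians of -0.0043, -0.0115, -0.0348, -0.0110, -0.0063 and -0.0080.

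With lmFit and eBayes, the average of the 3 pair ratios was tested against 0, and the pairs were tested against each other on 6 arrays, with dye as a further term, both over all kept probes with Benjamini-Hochberg adjustment. Genes in lists were represented by their brightest probe (12332 genes). Of the annotation's 21790 named probes, 20068 matched a symbol and 1644 a synonym in the RefSeq table of ARS-UCD2.0. Cows are separate animals, per the labels. Same-numbered cows shared arrays, so their correlated deviations from group means (0.20, 0.05 and 0.30) do not show that the animals were matched. Differently numbered cows, which shared no array, had -0.28 to 0.25, the highest between superstimulated cow 1 and non-superstimulated cow 2. The rule for named genes took all member probes, up to 4 genes of each pathway list with the smallest unadjusted p, and for each bright member the 2 genes most correlated over the 6 arrays; CYP19A1, INSR, AKT1, CLDN11 and the marker genes were added after values were seen. Members and lists were chosen with earlier results of these data known. The fits were tested on simulated data. Figures used Python 3.11.15 and matplotlib 3.10.9. Alternatives covered background, foreground measure, normalization, filter, ignored spots, eBayes trend, deposited values, slides, dyes, the replicate block and leaving out a pair. The planned promoter motif search was not run, and no sequences are shown.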

Additional observations from a re-analysis of the deposited data

How the results depend on the processing

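No member probe passed the group test by limma under any of 18 settings. Over all probes the count was 0 except for 2 with the pair as a random replicate block on 6 arrays and 8 without that block; these fits count each extract pair as more than 1 value, and 0 probes passed when levels of 3 cows were set unpaired against 3. Without a pair it was 0 to 0. The number of probes that differ between pairs, 12887, was 3667 with the foreground median, with 3 member probes, and 3291 in the deposited table, with 4; without a pair it was 9451 to 10598, with 6 to 7 member probes. The cause was not tested.

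The group ratios changed sign in these cases. Dyes as in the design text gave 0.38 for GATA4, -0.049 for NR5A1, 0.45, 0.17 and 0.85 for NR5A2 EMBV3_09371, EMBV3_29870 and EMBV3_40939, -0.016, 0.15 and -0.0018 for WT1 EMBV3_03434, EMBV3_06341 and EMBV3_11139, 0.46 for NR0B1, 1.08 for FOXO1 and -0.25 for AMH, by construction. On the slide with the superstimulated cow in Cy5 alone, NR5A1 had -0.49, WT1 EMBV3_11139 -0.21 and AMH -0.23, and on the swapped slide alone WT1 EMBV3_03434 had -0.13. WT1 EMBV3_11139 had -0.0092 with a normexp offset of 16, and WT1 EMBV3_03434 -0.00079 with ignored spots kept. Without a pair, AMH ranged from -0.076 to 0.69, NR5A1 from -0.080 to 0.17, NR5A2 EMBV3_29870 from -0.47 to 0.17, WT1 EMBV3_03434 from -0.0020 to 0.034 and WT1 EMBV3_11139 from -0.035 to 0.047. Signal near the negative controls limits the ratios of NR5A1, NR0B1 and WT1. The lowest signals of AMH, NR5A2 EMBV3_29870 and FOXO1 were also near it, at 1.04, 1.06 and 1.29 times the limit.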
